A study of Mus musculus with 48 samples.

Results

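The genes described here are 31 members of peroxisomal and mitochondrial fatty acid oxidation, chosen by symbol from a list of that pathway. They were chosen with earlier results of these data known. Setting their counts beside the shares of all genes is therefore a description and not a test. All of them were found among the 40847 genes counted in mouse liver. Peroxisomal members numbered 12 (Ehhadh, Acaa1a, Acaa1b, Hsd17b4, Decr2, Ech1, Eci2, Crat, Crot, Pex11a, Abcd2 and Abcd3) and mitochondrial members 16 (Cpt1a, Cpt2, Slc25a20, Acadm, Acadl, Acadvl, Acads, Hadha, Hadhb, Hadh, Acaa2, Decr1, Eci1, Etfa, Etfb and Etfdh), while Acsl1, Bdh1 and Pdk4 made up the other 3. RNA was sequenced from the livers of 48 mice, 1 library each, with 4 mice in each of 12 groups formed by sex, genotype and dose. Perfluorooctanesulfonic acid (PFOS), a persistent fluorinated surfactant, was given by gavage each day for 21 days in water with Tween 20 at 0, 1 or 10 mg/kg/day, and the groups are called 0-PFOS, 1-PFOS and 10-PFOS. The mice were 10 to 12 weeks old, ate a normal diet with 18% of its energy as fat and had a C57Bl/6J background. All of them, controls included, lacked the hepatic Cyp2b9, Cyp2b10 and Cyp2b13 genes through a Crispr/Cas9 deletion. The hCYP2B6-Tg mice carried in addition a human segment with CYP2B6, CYP2A13 and CYP2F1, and the Cyp2b-null mice did not, so that the genotype comparisons set transgenic against null mice and never against wild-type mice.

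Fatty acids are activated to acyl-CoA and then shortened in a repeated spiral of oxidation, hydration, a further oxidation and thiolytic cleavage. Mitochondria take up most chains through the carnitine shuttle, whereas peroxisomes take very long, branched and dicarboxylic chains through their own transporters and pass the shortened products on. In rodent liver many of these genes are targets of PPARα, the nuclear receptor that responds to fatty acids and to the compounds named peroxisome proliferators.

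PPARα binds DNA together with RXR at a repeat of AGGTCA in which 2 copies stand 1 base apart, and promoter windows were therefore read for the members, many of which moved together. The windows are RefSeq promoters of build GRCm38.p6, each 250 bases before and 50 bases after a gene's start, and 26 of the 31 members had at least 1, giving 29 windows (Hsd17b4, Crat, Abcd2, Acaa2 and Decr1 had none). On either strand and with up to 2 mismatches in the 12 letters, the repeat AGGTCANAGGTCA was found in 2 members, Slc25a20 and Etfa, or 6.9% of the member windows, against 3.86% of the 32851 windows of all genes. It was found in 0 of the 9 peroxisomal members with a window. At most 1 mismatch was met in 0 member windows, against 0.554% of all windows. A single AGGTCA, also searched on both strands, stood in windows of 3 members (Cpt1a, Acadm and Acadvl) and in 16.3% of all windows, and it can be part of the repeat. A match is a stretch of letters and not a bound site, and an empty window says only that these letters are not in it. The windows below are those with the repeat (Slc25a20 and Etfa), 2 of those with a single copy (Acadm and Cpt1a) and that of the member with the largest change, Ehhadh, which has neither. They are at chr9:108661886-108662185 (plus strand), chr9:55512194-55512493 (minus strand), chr3:153944594-153944893 (minus strand), chr19:3323051-3323350 (plus strand) and chr16:21787785-21788084 (minus strand), each written 5′ to 3′ on the gene's strand, with capitals for the matched letters.
Slc25a20: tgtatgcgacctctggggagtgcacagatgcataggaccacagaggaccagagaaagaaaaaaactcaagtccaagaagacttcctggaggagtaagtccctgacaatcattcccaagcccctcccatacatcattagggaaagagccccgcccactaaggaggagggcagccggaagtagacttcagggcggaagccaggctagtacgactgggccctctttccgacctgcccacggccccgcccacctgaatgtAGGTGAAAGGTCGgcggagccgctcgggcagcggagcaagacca
Etfa: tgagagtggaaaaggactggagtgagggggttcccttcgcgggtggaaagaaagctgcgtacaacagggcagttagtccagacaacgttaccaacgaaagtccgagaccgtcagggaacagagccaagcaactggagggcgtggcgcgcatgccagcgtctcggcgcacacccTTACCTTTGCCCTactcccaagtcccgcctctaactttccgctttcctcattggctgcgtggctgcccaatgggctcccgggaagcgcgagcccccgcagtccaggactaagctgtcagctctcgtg
Acadm: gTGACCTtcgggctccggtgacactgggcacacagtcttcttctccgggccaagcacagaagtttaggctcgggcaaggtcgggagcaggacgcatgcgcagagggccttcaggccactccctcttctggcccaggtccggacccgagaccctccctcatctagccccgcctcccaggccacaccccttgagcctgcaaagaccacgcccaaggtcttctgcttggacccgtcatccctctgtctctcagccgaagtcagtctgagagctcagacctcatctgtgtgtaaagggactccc
Cpt1a: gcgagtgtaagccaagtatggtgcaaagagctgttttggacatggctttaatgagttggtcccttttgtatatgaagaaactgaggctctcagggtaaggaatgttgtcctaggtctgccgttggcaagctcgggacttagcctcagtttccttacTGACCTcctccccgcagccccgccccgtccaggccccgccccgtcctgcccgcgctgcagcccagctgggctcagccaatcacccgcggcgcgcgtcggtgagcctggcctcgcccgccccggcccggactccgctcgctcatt
Ehhadh: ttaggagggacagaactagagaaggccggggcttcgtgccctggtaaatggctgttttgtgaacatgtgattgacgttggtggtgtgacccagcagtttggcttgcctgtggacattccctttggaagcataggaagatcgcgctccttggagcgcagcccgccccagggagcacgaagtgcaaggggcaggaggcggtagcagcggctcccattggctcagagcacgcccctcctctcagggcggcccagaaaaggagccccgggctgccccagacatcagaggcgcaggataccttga
Of the 2 members with the repeat, Slc25a20 rose at 10-PFOS in all 4 combinations of sex and genotype and Etfa was called in none. Of the 3 with a single copy, Acadm and Acadvl rose in all 4 and Cpt1a was called in none.

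Library totals ran over 44416597 to 82615862 counts. These totals may not be numbers of read pairs, since 91.1% to 91.2% of the counts above 0 were even. In Cyp2b-null males they were 48286947 to 49920608 at 10-PFOS, against 60539838 to 76025253 at 0-PFOS. The medians were also lower at 10-PFOS in hCYP2B6-Tg males (56190378.5 against 68648359.5) and, by less, in both female genotypes. Depth thus went along with dose, and its part in the changes was not tested. The members took a median of 2.58% of the counts in hCYP2B6-Tg females at 10-PFOS, against 0.985% at 0-PFOS, and 2.43% against 1.08% in Cyp2b-null females, 2.35% against 0.777% in hCYP2B6-Tg males and 2.36% against 0.831% in Cyp2b-null males. The 3 deleted genes were not at 0 in any group and summed to 0.908 to 5.86 counts per 1000000 counts of the library (CPM) at 0-PFOS, to 5.45 to 23.9 CPM at 1-PFOS and to 33.1 to 69 CPM at 10-PFOS over 16 mice per dose. Each of the 7 hepatocyte markers was detected in every group. Levels are CPM scaled by the trimmed mean of M-values (TMM), and changes are log2 fold changes ± standard error from edgeR's quasi-likelihood fit within each sex. The standard error was calculated back, as the absolute change divided by the square root of its F statistic. A gene is called where its adjusted p-value is under 0.05, by Benjamini-Hochberg over all 13193 genes tested in females or 12594 in males. The p-values set each change against the spread between mice within groups, estimated over all groups of a fit and not only those compared. The library called low below is hCYP2B6-Tg female 0-PFOS replicate 1. Its mean peroxisomal level was 7.66 log2 CPM, where the other 0-PFOS mice of that group lay between 7.98 and 8.31. In Cyp2b-null males replicate 4 also stood low at 0-PFOS (7.59, the others 7.82 to 8.03). So did replicate 4 of their 1-PFOS mice (7.99, the others 8.24 to 8.43).

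At 10-PFOS most members were higher than at 0-PFOS in both sexes and both genotypes, and by the mean change over the 4 combinations Ehhadh came first, followed by Pdk4, Pex11a, Acaa1b, Crat and Acaa1a. In hCYP2B6-Tg females 26 of the 31 members rose and 1 fell, where 22.3% of all genes tested rose and 24.5% fell. In Cyp2b-null females 22 rose and 1 fell, where 19.1% of all genes rose and 17.8% fell. Among hCYP2B6-Tg males 26 rose and 0 fell, beside 24.1% of all genes that rose and 23.9% that fell, and among Cyp2b-null males 25 rose and 0 fell, beside 22.5% and 21.6%. In the males edgeR gave an unadjusted p under 0.05 to 1 lower member (Bdh1 in Cyp2b-null males), and DESeq2 called 0 members lower. With upper quartile factors, or with the stricter filter on low counts, edgeR called Bdh1 lower in Cyp2b-null males (adjusted p = 0.043 and 0.0373). The median log2 change of the members was 1.05, 0.80, 0.91 and 0.79 in hCYP2B6-Tg females, Cyp2b-null females, hCYP2B6-Tg males and Cyp2b-null males, and the medians of all genes tested were −0.05, −0.01, −0.02 and −0.01 in the same order. Of the 31 members, 26, 25, 26 and 24 had 10-PFOS and 0-PFOS mice whose CPM did not overlap, beside 41.7%, 37.7%, 45.3% and 38.8% of all genes tested in the same order.

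Crot, Cpt1a and Etfa were called in none of the 4 combinations at 10-PFOS, and Bdh1 was the only one called lower. With library sizes alone and no scaling factors, a setting chosen after seeing the data, the median change of all genes was −0.18 in hCYP2B6-Tg females, 0.30 in hCYP2B6-Tg males and 0.23 in Cyp2b-null males, and the share of called genes that were higher was 33.6% (47.7% with TMM), 82.1% (50.2% with TMM) and 78.6% (50.9% with TMM). Under it 23, 27 and 28 members rose and 1, 0 and 0 fell in those 3 combinations. Crot was then called higher in Cyp2b-null males.

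**Figure D1:**
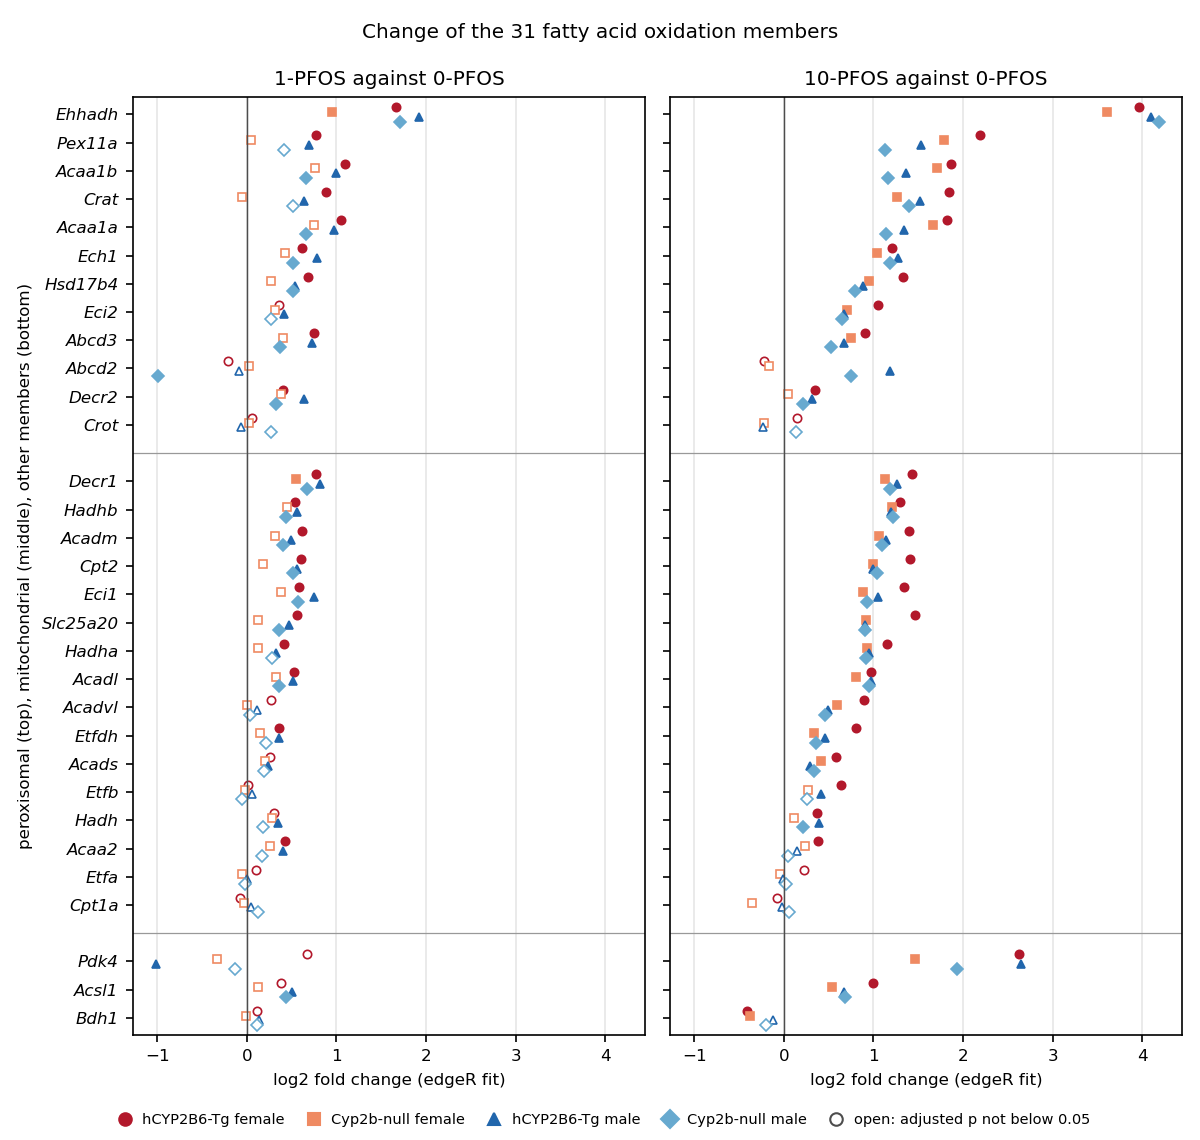
Log2 fold change (x axis) of the 31 members (y axis, by class) at 1-PFOS and at 10-PFOS against 0-PFOS, with a symbol for each combination of sex and genotype, filled where the adjusted p was under 0.05 and open where it was not. At 10-PFOS, 26, 22, 26 and 25 members were called higher in hCYP2B6-Tg females, Cyp2b-null females, hCYP2B6-Tg males and Cyp2b-null males, and Ehhadh lay farthest to the right.

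At 1-PFOS, the lower dose, Ehhadh and Decr1 were called higher in all 4 combinations and the number of members called was lowest in Cyp2b-null females. In hCYP2B6-Tg females 19 members rose and 0 fell, where 1.69% of all genes rose and 0.584% fell. In Cyp2b-null females 2 (Ehhadh and Decr1) rose and 0 fell, where 0.432% of all genes rose and 0.265% fell. There 15 of the 31 members had an unadjusted p under 0.05, beside 1903 of the 13193 genes tested. Among hCYP2B6-Tg males 23 rose and 1 (Pdk4) fell, beside 8.72% of all genes that rose and 5.98% that fell, and among Cyp2b-null males 15 rose and 1 (Abcd2) fell, beside 2.32% and 1.3%. The members' median change was 0.52 in hCYP2B6-Tg females, 0.20 in Cyp2b-null females, 0.50 in hCYP2B6-Tg males and 0.36 in Cyp2b-null males, and the all-gene medians were between −0.02 and 0.01. At this dose 18, 13, 25 and 17 members had 1-PFOS and 0-PFOS mice whose CPM did not overlap, beside 7.78%, 10.3%, 19.8% and 8.38% of all genes tested in the same order. Whether these combinations differed at 1-PFOS was tested as a difference of responses, given with the genotype and sex comparisons. DESeq2 called 20, 7, 24 and 19 members in the 4 combinations in the same order, and a fit of only the 2 groups compared called 5, 4, 23 and 3. Without hCYP2B6-Tg female 0-PFOS replicate 1, the low library, 12 members were called at 1-PFOS in that combination, and 27 at 10-PFOS as with it.

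Transcripts of clock genes also differed between some of the groups. An index of 12 clock genes that peak by day minus 5 that peak around dawn, as a difference of mean log2 CPM, averaged 1.3 at 10-PFOS against −1.48 at 0-PFOS in Cyp2b-null females, 2.95 against −0.377 in hCYP2B6-Tg males and 1.86 against −1.18 in Cyp2b-null males, with no overlap between these doses. In hCYP2B6-Tg females its 10-PFOS range of 1.48 to 2.67 lay inside the 0-PFOS range of −0.80 to 3.18. At 1-PFOS it averaged 2.37 in hCYP2B6-Tg males, all of them above the 0-PFOS mice of that combination. It averaged 1.88 at 1-PFOS against 1.36 at 0-PFOS in hCYP2B6-Tg females, 0.636 against −1.48 in Cyp2b-null females and −1.42 against −1.18 in Cyp2b-null males, and those ranges overlapped. The day-peaking genes did not all move alike at 10-PFOS. Of the 12, 0 rose and 1 fell in hCYP2B6-Tg females and 7 rose and 1 fell in Cyp2b-null females. In each male genotype 6 rose and 2 fell, where 22.5% to 24.1% of all genes rose and 21.6% to 23.9% fell. In females 19.1% to 22.3% of all genes rose and 17.8% to 24.5% fell. Of the 5 dawn-peaking genes 0 rose in any combination at 10-PFOS. Of these 1 fell in hCYP2B6-Tg females, 3 in Cyp2b-null females, 5 in hCYP2B6-Tg males and 4 in Cyp2b-null males. Whether the index marks a time of day, and the part of the clock in the members' changes, was not tested.

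The median change of the peroxisomal members was above that of the mitochondrial members at both doses in all 4 combinations, a description that was not tested. Further genes of both compartments, given below, kept this order at 10-PFOS only in Cyp2b-null males. At 10-PFOS 10, 9, 11 and 11 of the 12 peroxisomal members rose in hCYP2B6-Tg females, Cyp2b-null females, hCYP2B6-Tg males and Cyp2b-null males, with median log2 changes of 1.27, 1.00, 1.23 and 0.96, and 14, 11, 13 and 12 of the 16 mitochondrial members rose, with medians of 0.93, 0.70, 0.70 and 0.68. At 1-PFOS the peroxisomal medians were 0.71, 0.35, 0.66 and 0.46 and the mitochondrial medians 0.42, 0.19, 0.38 and 0.25. The difference between the mean log2 CPM of the 12 peroxisomal and that of the 16 mitochondrial members was taken in each mouse, and is read only for its change with dose. In hCYP2B6-Tg females it averaged 0.415 ± 0.0998 at 0-PFOS, 0.720 ± 0.080 at 1-PFOS and 0.911 ± 0.108 at 10-PFOS (SD, n = 4 each). In Cyp2b-null females it was 0.481 ± 0.075, 0.637 ± 0.084 and 0.985 ± 0.048 in the order of dose. The hCYP2B6-Tg males had 0.348 ± 0.054, 0.648 ± 0.042 and 0.902 ± 0.036, and the Cyp2b-null males 0.427 ± 0.112, 0.584 ± 0.079 and 0.920 ± 0.040. Every 10-PFOS mouse lay above every 0-PFOS mouse of its own combination. Each gene weighs the same in these means, so the rise of Ehhadh alone, 3.61 to 4.18 at 10-PFOS, lifts the peroxisomal mean. The difference was not computed without Ehhadh, so it is not shown to be a shift of the whole class. Without Crat and Ech1, which also work in mitochondria, the difference of the class medians at 10-PFOS was 0.33 in hCYP2B6-Tg males (0.53 with them), 0.16 in Cyp2b-null females (0.30 with them) and 0.09 in Cyp2b-null males (0.28 with them).

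**Figure D2:**
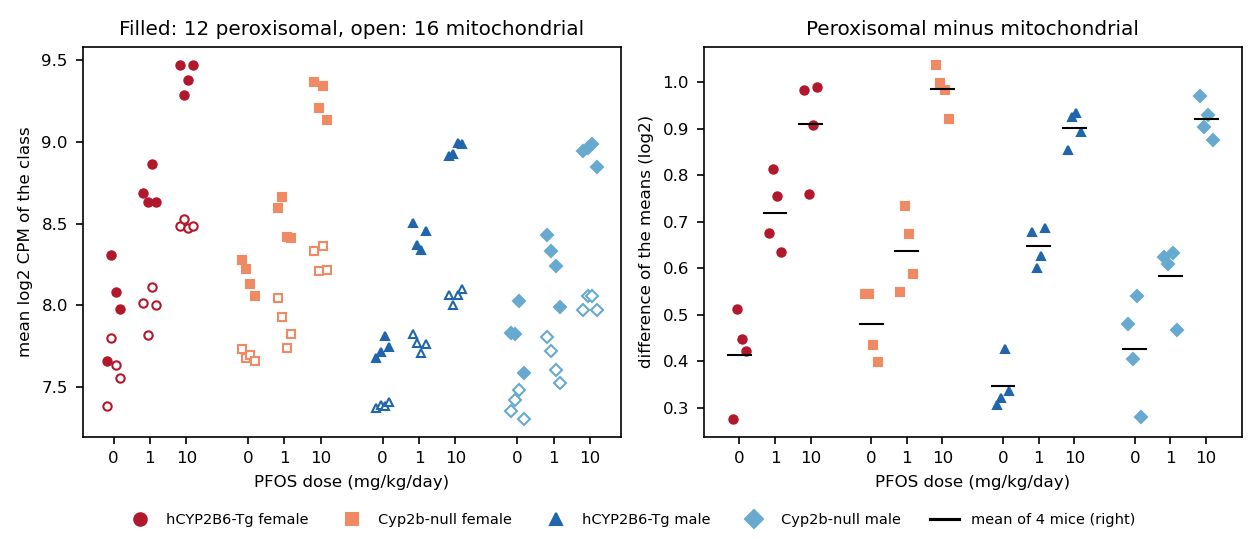
Left, the mean log2 CPM of the 12 peroxisomal (filled) and 16 mitochondrial members (open) in each mouse by dose in mg/kg/day, and right, the peroxisomal minus the mitochondrial mean per mouse with a line at the mean of 4 mice. Both class means were higher at 10-PFOS than at 0-PFOS, and the difference averaged between 0.902 and 0.985 at 10-PFOS against 0.348 to 0.481 at 0-PFOS.

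Ehhadh, the peroxisomal bifunctional enzyme that hydrates the acyl-CoA chain and oxidises it again, changed more than any other member. In hCYP2B6-Tg females Ehhadh had 315, 598, 526 and 479.5 CPM at 0-PFOS, 1239, 1405, 2016 and 1409 at 1-PFOS and 7887, 6535, 7339.5 and 8179 at 10-PFOS. In Cyp2b-null females Ehhadh had 677, 646, 476 and 428 CPM at 0-PFOS, 1042, 1089.8, 1327 and 832 at 1-PFOS and 7672, 6865, 7067 and 5577 at 10-PFOS. The doses did not overlap in either genotype, and each step of dose was upward. Male Ehhadh levels were 321, 297, 363 and 307 CPM at 0-PFOS, 1269, 1152, 1377 and 1087 at 1-PFOS and 5121, 5313, 6069 and 5626 at 10-PFOS in hCYP2B6-Tg mice and 293, 316, 366 and 299.5 CPM at 0-PFOS, 1061, 939.7, 1284 and 892 at 1-PFOS and 6359, 5356, 6188 and 5254 at 10-PFOS in Cyp2b-null mice, again with no overlap between doses. At 10-PFOS the log2 change was 3.96 ± 0.22 (edgeR adjusted p = 5.21e-12) in hCYP2B6-Tg females, 3.61 ± 0.21 (adjusted p = 2.39e-11) in Cyp2b-null females, 4.10 ± 0.13 (adjusted p = 6.44e-17) in hCYP2B6-Tg males and 4.18 ± 0.13 (adjusted p = 4.47e-17) in Cyp2b-null males, or 15.6-fold, 12.2-fold, 17.2-fold and 18.2-fold. At 1-PFOS it rose by 1.66 ± 0.20 (edgeR adjusted p = 1.58e-05) in hCYP2B6-Tg females, 0.95 ± 0.19 (adjusted p = 0.0169) in Cyp2b-null females, 1.92 ± 0.12 (adjusted p = 2.27e-10) in hCYP2B6-Tg males and 1.71 ± 0.12 (adjusted p = 2.45e-09) in Cyp2b-null males. The 1-PFOS call in Cyp2b-null females was lost without replicate 3 or 4 of the Cyp2b-null female 0-PFOS mice (adjusted p = 0.0706 and 0.0761) or replicate 3 of the Cyp2b-null female 1-PFOS mice (adjusted p = 0.0911).

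Acaa1a and Acaa1b encode peroxisomal thiolases, which release acetyl-CoA at the end of each turn. In hCYP2B6-Tg females Acaa1a had 542, 1336, 983 and 998 CPM at 0-PFOS, 1911, 1529.7, 2523 and 2061 at 1-PFOS and 3749.6, 2689.6, 3267 and 3950.2 at 10-PFOS. Its levels in Cyp2b-null females were 1121, 973, 1125 and 821 CPM at 0-PFOS, 1834, 1476, 1795 and 1683 at 1-PFOS and 3061, 3446, 3225 and 3119.6 at 10-PFOS. In hCYP2B6-Tg males Acaa1a had 1137, 1107, 1047 and 1064 CPM at 0-PFOS, 2381, 2248, 1893 and 2060.3 at 1-PFOS and 2574, 2451, 2991 and 2979 at 10-PFOS. Every 1-PFOS and 10-PFOS mouse of these combinations lay above the 0-PFOS mice, and the low library, replicate 1 of the hCYP2B6-Tg females at 0-PFOS, was the lowest female. In Cyp2b-null males Acaa1a had 1194, 1439, 1219.6 and 1078 CPM at 0-PFOS, 2192, 2176, 1824 and 1591 at 1-PFOS and 2654, 2769.8, 2972 and 2496 at 10-PFOS, also without overlap. Acaa1a rose at 10-PFOS by 1.82 ± 0.20 (edgeR adjusted p = 1.37e-07) in hCYP2B6-Tg females, 1.67 ± 0.20 (adjusted p = 6.11e-07) in Cyp2b-null females, 1.34 ± 0.11 (adjusted p = 1.56e-09) in hCYP2B6-Tg males and 1.14 ± 0.11 (adjusted p = 2.04e-08) in Cyp2b-null males.

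Acaa1b followed the same course. In hCYP2B6-Tg females Acaa1b had 581, 1531, 1098 and 1121 CPM at 0-PFOS, 2202, 1781, 2875 and 2378 at 1-PFOS and 4319.99, 3043, 3765 and 4659.6 at 10-PFOS. In Cyp2b-null females Acaa1b had 1265, 1121, 1288 and 898 CPM at 0-PFOS, 2127, 1705, 2037 and 1887 at 1-PFOS and 3505, 4052, 3778 and 3632 at 10-PFOS. The 3 doses were separate in both genotypes. Acaa1b levels in hCYP2B6-Tg males were 1287, 1249, 1177 and 1208 CPM at 0-PFOS, 2745, 2604, 2111 and 2328 at 1-PFOS and 2925, 2864, 3437 and 3439.5 at 10-PFOS, and in Cyp2b-null males 1359, 1653, 1397 and 1219 CPM at 0-PFOS, 2519, 2529.8, 2067 and 1793 at 1-PFOS and 3044, 3212, 3449 and 2917 at 10-PFOS. Those doses were separate as well, and at 10-PFOS Acaa1b rose by 1.87 ± 0.21 (edgeR adjusted p = 2e-07) in hCYP2B6-Tg females, 1.71 ± 0.21 (adjusted p = 8.81e-07) in Cyp2b-null females, 1.36 ± 0.12 (adjusted p = 2.36e-09) in hCYP2B6-Tg males and 1.17 ± 0.12 (adjusted p = 3.19e-08) in Cyp2b-null males. At 1-PFOS both thiolases rose in hCYP2B6-Tg females and in both male genotypes, and in Cyp2b-null females Acaa1a changed by 0.75 ± 0.19 (edgeR adjusted p = 0.0781) and Acaa1b by 0.76 ± 0.20 (adjusted p = 0.0841). In the GENCODE M21 annotation of GRCm38, 19.3% of the 100-base stretches of Acaa1b also occur in Acaa1a and 7.21% of those of Acaa1a in Acaa1b, so the counts of the 2 genes may share reads. Genes on the opposite strand overlap 11.4% of the exon bases of Acaa1b (Dlec1) and 6.57% of those of Acaa1a, and since the strand setting of the counting is not known, reads of such genes cannot be told apart from those of the members.

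Hsd17b4, the second peroxisomal bifunctional enzyme, also serves branched chains and bile acid intermediates. In hCYP2B6-Tg females Hsd17b4 had 253, 290.1, 264 and 262 CPM at 0-PFOS, 455, 426, 453 and 378 at 1-PFOS and 707, 683, 639.8 and 657 at 10-PFOS. In Cyp2b-null females Hsd17b4 had 314, 311, 327 and 326 CPM at 0-PFOS, 403, 434, 333 and 367 at 1-PFOS and 669.6, 599.8, 663 and 537 at 10-PFOS. Both sets rose step by step with no overlap. In hCYP2B6-Tg males Hsd17b4 had 271, 303, 311 and 269.8 CPM at 0-PFOS, 427, 427, 385 and 431 at 1-PFOS and 526, 521, 553 and 523 at 10-PFOS. Its Cyp2b-null male levels were 314, 311, 312 and 272 CPM at 0-PFOS, 453, 449, 424 and 403 at 1-PFOS and 537, 526, 566 and 467 at 10-PFOS. From 1-PFOS to 10-PFOS the males had the narrower step, and their doses did not overlap either. Hsd17b4 changed at 10-PFOS by 1.33 ± 0.10 (edgeR adjusted p = 5.03e-10) in hCYP2B6-Tg females, 0.95 ± 0.10 (adjusted p = 7.97e-08) in Cyp2b-null females, 0.88 ± 0.08 (adjusted p = 3.12e-09) in hCYP2B6-Tg males and 0.79 ± 0.08 (adjusted p = 1.87e-08) in Cyp2b-null males.

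The peroxisomal helper enzymes that prepare unsaturated chains for the spiral are Decr2 (a dienoyl-CoA reductase), Eci2 (an enoyl-CoA isomerase) and Ech1 (a dienoyl-CoA isomerase). In hCYP2B6-Tg females Decr2 had 176, 199, 227 and 190.1 CPM at 0-PFOS, 243, 249, 317 and 239 at 1-PFOS and 254, 251, 246 and 254 at 10-PFOS. In Cyp2b-null females Decr2 had 219, 192, 183 and 199 CPM at 0-PFOS, 256, 285, 246 and 245 at 1-PFOS and 206, 191, 211 and 213 at 10-PFOS. Decr2 at 10-PFOS lay above 0-PFOS in the transgenic females, but overlapped 0-PFOS and lay below 1-PFOS in the null females. In hCYP2B6-Tg males Decr2 had 137, 132, 137 and 142 CPM at 0-PFOS, 207, 195, 224 and 226 at 1-PFOS and 180.2, 155, 179.8 and 168 at 10-PFOS. In Cyp2b-null males Decr2 had 142, 154, 162 and 148 CPM at 0-PFOS, 211, 180.4, 202 and 165 at 1-PFOS and 186, 184, 175 and 154 at 10-PFOS. The 1-PFOS mice were the highest in hCYP2B6-Tg males, and in Cyp2b-null males 10-PFOS overlapped both other doses. Its log2 change at 10-PFOS was 0.34 ± 0.10 (edgeR adjusted p = 0.00682) in hCYP2B6-Tg females, 0.05 ± 0.10 (adjusted p = 0.723) in Cyp2b-null females, 0.32 ± 0.08 (adjusted p = 0.00318) in hCYP2B6-Tg males and 0.21 ± 0.08 (adjusted p = 0.0496) in Cyp2b-null males. The call in Cyp2b-null males was lost without replicate 1 or 2 or 4 of the Cyp2b-null male 0-PFOS mice (adjusted p = 0.172, 0.0985 and 0.123) or replicate 1 or 2 or 3 of the Cyp2b-null male 10-PFOS mice (adjusted p = 0.127, 0.12 and 0.0814). From 1-PFOS to 10-PFOS Decr2 fell in Cyp2b-null females (−0.33 ± 0.10, edgeR adjusted p = 0.0125) and hCYP2B6-Tg males (−0.32 ± 0.08, adjusted p = 0.00434).

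Eci2 rose further between 1-PFOS and 10-PFOS in all 4 combinations. In hCYP2B6-Tg females Eci2 had 126, 236, 191 and 196 CPM at 0-PFOS, 224, 208, 263 and 265 at 1-PFOS and 363, 443, 377 and 369.6 at 10-PFOS. In Cyp2b-null females Eci2 had 166, 160.1, 165 and 170.04 CPM at 0-PFOS, 228, 204, 187 and 202 at 1-PFOS and 262, 242, 279 and 293 at 10-PFOS. At 10-PFOS every mouse lay above the other doses, and the transgenic 10-PFOS mice were the highest. In hCYP2B6-Tg males Eci2 had 157, 138, 155 and 165 CPM at 0-PFOS, 203, 195, 214 and 207 at 1-PFOS and 254, 235, 244 and 244 at 10-PFOS. In Cyp2b-null males Eci2 had 142, 124, 178 and 131 CPM at 0-PFOS, 192, 176, 164 and 163 at 1-PFOS and 219, 227, 227 and 226 at 10-PFOS. The 10-PFOS males also stood apart, while 1-PFOS overlapped 0-PFOS in hCYP2B6-Tg females and in Cyp2b-null males. Eci2 rose at 10-PFOS by 1.05 ± 0.14 (edgeR adjusted p = 1.42e-06) in hCYP2B6-Tg females, 0.70 ± 0.13 (adjusted p = 0.000236) in Cyp2b-null females, 0.67 ± 0.09 (adjusted p = 1.99e-06) in hCYP2B6-Tg males and 0.65 ± 0.09 (adjusted p = 3.74e-06) in Cyp2b-null males. Ech1 rose at 10-PFOS in all 4 combinations, by 1.21 ± 0.11 in hCYP2B6-Tg females, 1.04 ± 0.11 in Cyp2b-null females, 1.27 ± 0.10 in hCYP2B6-Tg males and 1.18 ± 0.10 in Cyp2b-null males, with adjusted p between 1.39e-10 and 7.97e-08.

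Pex11a, a membrane protein that elongates peroxisomes before they divide, was among the members with the largest change. In hCYP2B6-Tg females Pex11a had 29.6, 70.5, 42.2 and 41.997 CPM at 0-PFOS, 91.3, 69.4, 79.6 and 73.9 at 1-PFOS and 215, 245, 212 and 171 at 10-PFOS. In Cyp2b-null females Pex11a had 53.5, 65.4, 50.2 and 50.6 CPM at 0-PFOS, 62.2, 61.9, 42.7 and 59.4 at 1-PFOS and 206, 179.6, 188 and 183 at 10-PFOS. The 10-PFOS females stood clear of both lower doses, which overlapped each other. In hCYP2B6-Tg males Pex11a had 54.7, 63.6, 58.8 and 49.8 CPM at 0-PFOS, 106, 99.6, 68.4 and 92.5 at 1-PFOS and 146, 176, 172 and 164 at 10-PFOS. In Cyp2b-null males Pex11a had 66.2, 55.1, 92.6 and 39.7 CPM at 0-PFOS, 98.6, 114, 67.7 and 56.7 at 1-PFOS and 129, 141, 152 and 132 at 10-PFOS. The 10-PFOS males were again the highest, and 1-PFOS was separate from 0-PFOS only in hCYP2B6-Tg males. At 10-PFOS Pex11a changed by 2.19 ± 0.19 (edgeR adjusted p = 4.63e-09) in hCYP2B6-Tg females, 1.78 ± 0.19 (adjusted p = 1.07e-07) in Cyp2b-null females, 1.54 ± 0.21 (adjusted p = 1.42e-06) in hCYP2B6-Tg males and 1.13 ± 0.20 (adjusted p = 8.53e-05) in Cyp2b-null males. At 1-PFOS it rose in hCYP2B6-Tg females (0.77 ± 0.18, adjusted p = 0.0248) and hCYP2B6-Tg males (0.69 ± 0.20, adjusted p = 0.0226). The female call was lost without replicate 1 or 3 or 4 of the hCYP2B6-Tg female 0-PFOS mice (adjusted p = 0.0816, 0.0809 and 0.09) or replicate 3 of the hCYP2B6-Tg female 1-PFOS mice (adjusted p = 0.0715), and the male call without replicate 1 or 4 of the hCYP2B6-Tg male 0-PFOS mice (adjusted p = 0.0614 and 0.0742) or replicate 1 or 2 or 4 of the hCYP2B6-Tg male 1-PFOS mice (adjusted p = 0.064, 0.0645 and 0.0534).

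**Figure D3:**
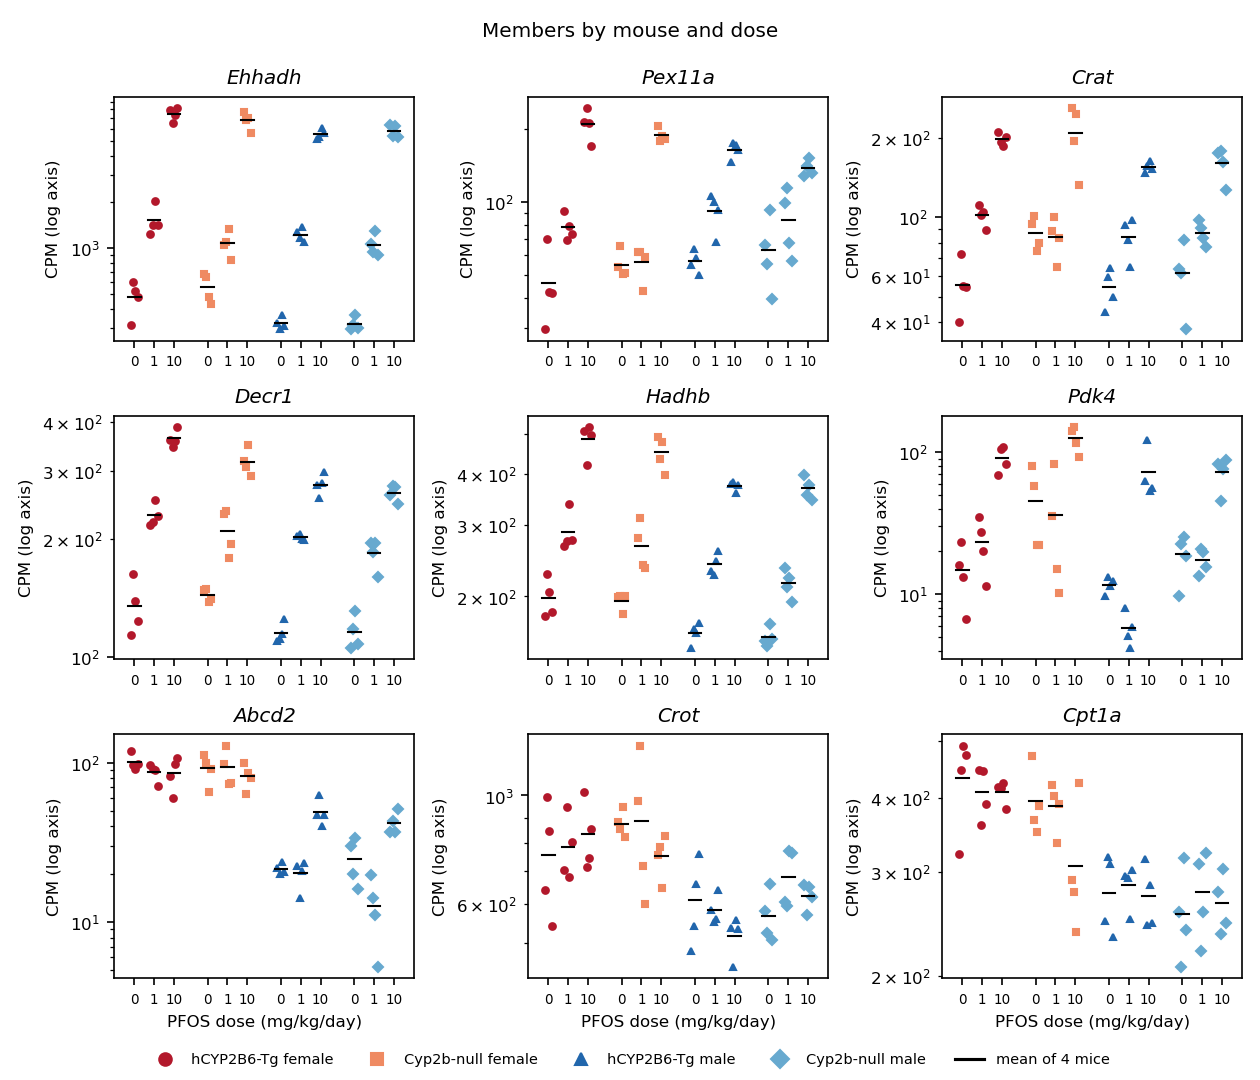
CPM (log axis) of Ehhadh, Pex11a, Crat, Decr1, Hadhb, Pdk4, Abcd2, Crot and Cpt1a in each of the 48 mice, by dose in mg/kg/day within each combination of sex and genotype. Ehhadh lay between 5577 and 8179 CPM in the 10-PFOS females, against 315 to 677 CPM in the 0-PFOS females, while Crot and Cpt1a overlapped between doses.

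Crat and Crot transfer acyl groups between CoA and carnitine, Crat on short and Crot on medium chains, so that products can leave the peroxisome. In hCYP2B6-Tg females Crat had 40.1, 72.3, 54.8 and 54.3 CPM at 0-PFOS, 111, 102, 105 and 89.3 at 1-PFOS and 212, 193, 188 and 202 at 10-PFOS. In Cyp2b-null females Crat had 94.3, 101, 74.6 and 79.6 CPM at 0-PFOS, 88.7, 100.1, 64.6 and 83.8 at 1-PFOS and 261, 195, 248 and 133 at 10-PFOS. Only the 10-PFOS mice stood apart in the null females, where 1-PFOS overlapped 0-PFOS. In hCYP2B6-Tg males Crat had 43.8, 59.5, 64.1 and 49.9 CPM at 0-PFOS, 93.4, 82.1, 64.7 and 98.2 at 1-PFOS and 148, 157, 164 and 153 at 10-PFOS. In Cyp2b-null males Crat had 63.9, 61.2, 82.2 and 37.5 CPM at 0-PFOS, 97.9, 90.9, 83.3 and 77.3 at 1-PFOS and 176, 178, 162 and 127 at 10-PFOS. The 10-PFOS males lay above all others of their genotype. Crat rose at 10-PFOS by 1.84 ± 0.18 (edgeR adjusted p = 4.14e-08) in hCYP2B6-Tg females, 1.26 ± 0.18 (adjusted p = 8.71e-06) in Cyp2b-null females, 1.52 ± 0.17 (adjusted p = 1.38e-07) in hCYP2B6-Tg males and 1.40 ± 0.17 (adjusted p = 5.61e-07) in Cyp2b-null males. Crot changed by 0.14 ± 0.19 (edgeR adjusted p = 0.563) in hCYP2B6-Tg females, −0.22 ± 0.19 (adjusted p = 0.404) in Cyp2b-null females, −0.24 ± 0.12 (adjusted p = 0.121) in hCYP2B6-Tg males and 0.14 ± 0.12 (adjusted p = 0.393) in Cyp2b-null males, none of them past the threshold. Without replicate 1 of the hCYP2B6-Tg male 0-PFOS mice the change of Crot in hCYP2B6-Tg males was −0.35 and was called (adjusted p = 0.0214), and leaving out each library of that comparison gave −0.35 to −0.13. For Crat 8.72% of the exon bases overlap genes on the opposite strand.

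Of the transporters Abcd2 and Abcd3, which carry acyl-CoA into the peroxisome, Abcd2 was called higher at 10-PFOS in males of both genotypes and in neither female genotype. In hCYP2B6-Tg females Abcd2 had 118, 96.4, 91.3 and 97.4 CPM at 0-PFOS, 97.2, 90.8, 89.7 and 71.03 at 1-PFOS and 81.8, 59.8, 97.3 and 107 at 10-PFOS. In Cyp2b-null females Abcd2 had 112, 99.1, 65.2 and 91.2 CPM at 0-PFOS, 98.2, 128, 73.3 and 74.1 at 1-PFOS and 98.9, 63.9, 85.7 and 79.7 at 10-PFOS. The doses overlapped in both. In hCYP2B6-Tg males Abcd2 had 21.7, 20.03, 23.9 and 20.7 CPM at 0-PFOS, 22.6, 14.2, 20.9 and 23.3 at 1-PFOS and 47.1, 62.4, 39.9 and 47.2 at 10-PFOS. In Cyp2b-null males Abcd2 had 29.9, 19.9, 33.5 and 16.1 CPM at 0-PFOS, 19.8, 14.1, 10.999 and 5.22 at 1-PFOS and 36.6, 43.2, 36.96 and 50.9 at 10-PFOS. The 10-PFOS males lay above the 1-PFOS and 0-PFOS males, and 1-PFOS overlapped 0-PFOS in both genotypes. The log2 change at 10-PFOS was −0.22 ± 0.19 (edgeR adjusted p = 0.365) in hCYP2B6-Tg females, −0.16 ± 0.19 (adjusted p = 0.541) in Cyp2b-null females, 1.19 ± 0.26 (adjusted p = 0.000675) in hCYP2B6-Tg males and 0.75 ± 0.26 (adjusted p = 0.0229) in Cyp2b-null males. At 1-PFOS it fell in Cyp2b-null males, with a log2 change of −0.99 ± 0.27 (adjusted p = 0.0362). In those males the 10-PFOS call was lost without replicate 2 or 4 of the Cyp2b-null male 0-PFOS mice (adjusted p = 0.0774 and 0.0961) or replicate 4 of the Cyp2b-null male 10-PFOS mice (adjusted p = 0.0705), and the 1-PFOS call without replicate 1 or 3 of the Cyp2b-null male 0-PFOS mice (adjusted p = 0.111 and 0.127) or replicate 3 or 4 of the Cyp2b-null male 1-PFOS mice (adjusted p = 0.13 and 0.0865). Abcd3 rose at 10-PFOS in all 4 combinations, by 0.91 ± 0.16 in hCYP2B6-Tg females, 0.75 ± 0.16 in Cyp2b-null females, 0.68 ± 0.09 in hCYP2B6-Tg males and 0.53 ± 0.09 in Cyp2b-null males, with adjusted p between 1.51e-06 and 0.000693.

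The carnitine shuttle brings long chains into the mitochondrion: Cpt1a forms the carnitine ester at the outer membrane, Slc25a20 carries it across the inner membrane and Cpt2 returns the chain to CoA. Cpt1a, the rate-limiting enzyme of this entry, was called at neither dose, with log2 changes at 10-PFOS of −0.08 ± 0.15 (edgeR adjusted p = 0.69) in hCYP2B6-Tg females, −0.36 ± 0.15 (adjusted p = 0.0646) in Cyp2b-null females, −0.02 ± 0.14 (adjusted p = 0.915) in hCYP2B6-Tg males and 0.06 ± 0.14 (adjusted p = 0.764) in Cyp2b-null males. The value in Cyp2b-null females passed the threshold without replicate 4 of the 10-PFOS mice (adjusted p = 0.00329), and also with upper quartile factors. In hCYP2B6-Tg females Cpt2 had 104, 118, 117 and 102 CPM at 0-PFOS, 159, 165, 197 and 151 at 1-PFOS and 286, 313, 302 and 272 at 10-PFOS. In Cyp2b-null females Cpt2 had 142, 121, 139.9 and 126 CPM at 0-PFOS, 148, 178, 135 and 138 at 1-PFOS and 307, 235, 289 and 227 at 10-PFOS. The 10-PFOS mice were separate and higher, and in null females 1-PFOS overlapped 0-PFOS. In hCYP2B6-Tg males Cpt2 had 94.3, 107, 111 and 109 CPM at 0-PFOS, 149, 146, 157 and 170.2 at 1-PFOS and 223, 200.4, 212 and 207 at 10-PFOS. In Cyp2b-null males Cpt2 had 107, 114, 112 and 88.8 CPM at 0-PFOS, 139, 141, 167 and 157 at 1-PFOS and 239, 223, 216 and 193 at 10-PFOS. The males showed 3 separate levels in the order of dose. Cpt2 rose at 10-PFOS by 1.41 ± 0.12 (edgeR adjusted p = 2.57e-09) in hCYP2B6-Tg females, 1.00 ± 0.12 (adjusted p = 4.39e-07) in Cyp2b-null females, 1.00 ± 0.09 (adjusted p = 4.04e-09) in hCYP2B6-Tg males and 1.04 ± 0.09 (adjusted p = 2.23e-09) in Cyp2b-null males.

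Slc25a20, the carrier between these 2 enzymes, behaved like Cpt2. In hCYP2B6-Tg females Slc25a20 had 55.1, 86.4, 72.004 and 71.9 CPM at 0-PFOS, 113, 95.01, 111 and 101 at 1-PFOS and 195, 233, 178 and 181 at 10-PFOS. In Cyp2b-null females Slc25a20 had 88.8, 85.2, 85.1 and 78.98 CPM at 0-PFOS, 103, 102, 77.2 and 87.7 at 1-PFOS and 175, 153, 168 and 143 at 10-PFOS. The 10-PFOS females stood above all others, and 1-PFOS overlapped 0-PFOS in null females. In hCYP2B6-Tg males Slc25a20 had 69.4, 77.5, 72.99 and 68.8 CPM at 0-PFOS, 109.6, 96.7, 94.5 and 98.7 at 1-PFOS and 133, 137, 135 and 138 at 10-PFOS. In Cyp2b-null males Slc25a20 had 75.2, 73.7, 84.7 and 60.2 CPM at 0-PFOS, 107, 102, 90.2 and 79.2 at 1-PFOS and 134, 138, 144 and 132 at 10-PFOS. In the null males 1-PFOS and 0-PFOS overlapped as well. At 10-PFOS Slc25a20 changed by 1.46 ± 0.13 (edgeR adjusted p = 4.25e-09) in hCYP2B6-Tg females, 0.92 ± 0.12 (adjusted p = 3.47e-06) in Cyp2b-null females, 0.91 ± 0.09 (adjusted p = 3.12e-08) in hCYP2B6-Tg males and 0.90 ± 0.09 (adjusted p = 4.29e-08) in Cyp2b-null males. At 1-PFOS Slc25a20 rose in Cyp2b-null males (0.36 ± 0.09, adjusted p = 0.0286), a call that was lost without replicate 1 or 2 or 4 of the Cyp2b-null male 0-PFOS mice (adjusted p = 0.0653, 0.0657 and 0.124) or replicate 1 or 2 or 3 of the Cyp2b-null male 1-PFOS mice (adjusted p = 0.0886, 0.066 and 0.0613).

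Acadvl, Acadl, Acadm and Acads, the acyl-CoA dehydrogenases that open each mitochondrial turn on very long, long, medium and short chains, all rose at 10-PFOS in all 4 combinations. In hCYP2B6-Tg females Acadm had 195, 349.6, 254 and 261 CPM at 0-PFOS, 412, 375, 428 and 409 at 1-PFOS and 659.8, 763, 684 and 676 at 10-PFOS. In Cyp2b-null females Acadm had 271, 267, 311 and 281 CPM at 0-PFOS, 424, 378, 286 and 320.01 at 1-PFOS and 598, 584, 604 and 574 at 10-PFOS. The 10-PFOS females were separate from both lower doses. In hCYP2B6-Tg males Acadm had 239, 231, 238 and 239 CPM at 0-PFOS, 369.8, 352, 307 and 309 at 1-PFOS and 514, 517, 525 and 533 at 10-PFOS. In Cyp2b-null males Acadm had 231, 247, 251 and 219 CPM at 0-PFOS, 348, 338, 309 and 261 at 1-PFOS and 459.8, 515, 555 and 498 at 10-PFOS. Males formed 3 separate levels in the order of dose. Acadm rose at 10-PFOS by 1.39 ± 0.14 (edgeR adjusted p = 2.87e-08) in hCYP2B6-Tg females, 1.06 ± 0.13 (adjusted p = 1.68e-06) in Cyp2b-null females, 1.14 ± 0.09 (adjusted p = 2.96e-10) in hCYP2B6-Tg males and 1.10 ± 0.09 (adjusted p = 6.44e-10) in Cyp2b-null males. Acadl rose by 0.97 ± 0.10 in hCYP2B6-Tg females, 0.80 ± 0.10 in Cyp2b-null females, 0.98 ± 0.08 in hCYP2B6-Tg males and 0.95 ± 0.08 in Cyp2b-null males, and Acadvl by 0.90 ± 0.14 in hCYP2B6-Tg females, 0.59 ± 0.14 in Cyp2b-null females, 0.49 ± 0.11 in hCYP2B6-Tg males and 0.46 ± 0.11 in Cyp2b-null males. The smallest changes of the 4 were those of Acads, with 0.58 ± 0.11 in hCYP2B6-Tg females, 0.42 ± 0.11 in Cyp2b-null females, 0.29 ± 0.07 in hCYP2B6-Tg males and 0.33 ± 0.07 in Cyp2b-null males. The highest adjusted p among these 3 genes was 0.00451. Of the exon bases of Acadvl 42.9% overlap Dvl2 on the opposite strand, so that its counts may include reads of that gene.

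Hadha and Hadhb encode the subunits of the mitochondrial trifunctional protein, which carries out the last 3 steps of the spiral on long chains, and they are transcribed in opposite directions from neighbouring starts. In the GENCODE M21 annotation of GRCm38 the starts are separated by 85 bases. The RefSeq promoter windows of the genes, which are drawn from RefSeq's own starts, share 228 bases. The window of Hadhb (GRCm38.p6, chr5:30155003-30155302, plus strand) is shown because the stretch between the GENCODE starts, in capitals, lies in front of both genes.
Hadhb: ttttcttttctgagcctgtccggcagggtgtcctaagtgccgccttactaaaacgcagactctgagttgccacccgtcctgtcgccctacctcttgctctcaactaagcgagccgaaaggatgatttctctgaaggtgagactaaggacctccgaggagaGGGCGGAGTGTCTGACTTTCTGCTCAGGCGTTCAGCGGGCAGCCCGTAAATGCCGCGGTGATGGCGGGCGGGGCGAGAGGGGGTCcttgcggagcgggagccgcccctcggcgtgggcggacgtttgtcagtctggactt
In hCYP2B6-Tg females Hadhb had 179, 227, 206 and 183 CPM at 0-PFOS, 266, 273, 337 and 275 at 1-PFOS and 510.2, 419.7, 522 and 499 at 10-PFOS. In Cyp2b-null females Hadhb had 199, 201, 182 and 200.02 CPM at 0-PFOS, 279, 312, 239 and 235 at 1-PFOS and 494, 436, 479 and 396 at 10-PFOS. Each dose was separate from the next in both. In hCYP2B6-Tg males Hadhb had 149, 166, 162 and 172 CPM at 0-PFOS, 231, 226, 244 and 259 at 1-PFOS and 377, 381, 358 and 375 at 10-PFOS. In Cyp2b-null males Hadhb had 156, 151, 171 and 157 CPM at 0-PFOS, 235, 210.4, 222 and 194 at 1-PFOS and 398, 356, 375 and 346 at 10-PFOS. The male doses were likewise separate. At 10-PFOS Hadhb rose by 1.30 ± 0.12 (edgeR adjusted p = 7.72e-09) in hCYP2B6-Tg females, 1.21 ± 0.12 (adjusted p = 2.71e-08) in Cyp2b-null females, 1.20 ± 0.08 (adjusted p = 1.11e-11) in hCYP2B6-Tg males and 1.22 ± 0.08 (adjusted p = 1.08e-11) in Cyp2b-null males, and Hadha by 1.15 ± 0.11 in hCYP2B6-Tg females, 0.93 ± 0.10 in Cyp2b-null females, 0.95 ± 0.09 in hCYP2B6-Tg males and 0.91 ± 0.09 in Cyp2b-null males with adjusted p between 4.58e-09 and 3.26e-07. For Hadhb 14.8% of its 100-base stretches also occur in Gm13910 or Gm9108, with which its reads may be shared. Hadh, which oxidises medium and short hydroxyacyl chains, changed by 0.37 ± 0.11 (edgeR adjusted p = 0.00849) in hCYP2B6-Tg females, 0.11 ± 0.11 (adjusted p = 0.458) in Cyp2b-null females, 0.40 ± 0.08 (adjusted p = 0.000427) in hCYP2B6-Tg males and 0.22 ± 0.08 (adjusted p = 0.0403) in Cyp2b-null males. Its call in Cyp2b-null males was lost without replicate 1 or 2 or 4 of the Cyp2b-null male 0-PFOS mice (adjusted p = 0.139, 0.0618 and 0.124) or replicate 1 or 2 or 3 of the Cyp2b-null male 10-PFOS mice (adjusted p = 0.0577, 0.134 and 0.0646).

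The mitochondrial counterparts of Decr2, Eci2 and the peroxisomal thiolases are Decr1, Eci1 and Acaa2. Hadhb, as part of the trifunctional protein, also belongs to the thiolase step. In hCYP2B6-Tg females Decr1 had 113, 163, 139 and 123 CPM at 0-PFOS, 218, 221, 253 and 229.6 at 1-PFOS and 359, 346, 358 and 389 at 10-PFOS. In Cyp2b-null females Decr1 had 148, 149, 138 and 140.2 CPM at 0-PFOS, 232, 236, 179 and 195 at 1-PFOS and 317, 306, 349 and 291 at 10-PFOS. Every dose stood apart from the next. In hCYP2B6-Tg males Decr1 had 109.9, 111, 115 and 125 CPM at 0-PFOS, 204, 206, 201 and 199 at 1-PFOS and 275, 255, 278 and 297 at 10-PFOS. In Cyp2b-null males Decr1 had 105, 118, 131 and 108 CPM at 0-PFOS, 196, 186, 195 and 160.2 at 1-PFOS and 259, 274, 273 and 247 at 10-PFOS. The same 3 separate levels were seen in males. Decr1 rose at 10-PFOS by 1.43 ± 0.11 (edgeR adjusted p = 8.09e-10) in hCYP2B6-Tg females, 1.13 ± 0.11 (adjusted p = 3.19e-08) in Cyp2b-null females, 1.26 ± 0.08 (adjusted p = 1.34e-11) in hCYP2B6-Tg males and 1.19 ± 0.08 (adjusted p = 4.55e-11) in Cyp2b-null males, and at 1-PFOS by 0.77 ± 0.11 (edgeR adjusted p = 0.000149) in hCYP2B6-Tg females, 0.55 ± 0.11 (adjusted p = 0.0146) in Cyp2b-null females, 0.81 ± 0.08 (adjusted p = 5.14e-07) in hCYP2B6-Tg males and 0.68 ± 0.08 (adjusted p = 2.03e-05) in Cyp2b-null males. The 1-PFOS call in Cyp2b-null females was lost without replicate 3 of the Cyp2b-null female 0-PFOS mice (adjusted p = 0.052) or replicate 2 of the Cyp2b-null female 1-PFOS mice (adjusted p = 0.0567).

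Eci1, the mitochondrial enoyl-CoA isomerase, had 79.05, 118, 106 and 87.6 CPM at 0-PFOS, 155, 105, 161 and 165 at 1-PFOS and 243, 249, 229 and 264 at 10-PFOS in hCYP2B6-Tg females. In Cyp2b-null females Eci1 had 115, 109, 102 and 104 CPM at 0-PFOS, 179, 129, 107 and 143 at 1-PFOS and 182, 207, 214 and 192 at 10-PFOS. The 10-PFOS females lay above the rest, and the lower doses overlapped each other. In hCYP2B6-Tg males Eci1 had 87.7, 86.7, 81.9 and 87.02 CPM at 0-PFOS, 157, 148, 128 and 144 at 1-PFOS and 184, 154, 193 and 178 at 10-PFOS. In Cyp2b-null males Eci1 had 81.3, 105, 94.7 and 82.2 CPM at 0-PFOS, 162, 151, 118 and 110.5 at 1-PFOS and 163, 186, 184 and 159 at 10-PFOS. In males both exposed groups lay above 0-PFOS and overlapped each other. Its rise at 10-PFOS was 1.34 ± 0.15 (edgeR adjusted p = 2.05e-07) in hCYP2B6-Tg females, 0.89 ± 0.15 (adjusted p = 5.42e-05) in Cyp2b-null females, 1.05 ± 0.11 (adjusted p = 5.12e-08) in hCYP2B6-Tg males and 0.93 ± 0.11 (adjusted p = 3.45e-07) in Cyp2b-null males.

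Acaa2, the mitochondrial thiolase for medium chains, had 527, 649, 632 and 614 CPM at 0-PFOS, 736, 852, 899 and 774 at 1-PFOS and 775, 782, 756 and 829 at 10-PFOS in hCYP2B6-Tg females. In Cyp2b-null females Acaa2 had 606, 590.1, 638 and 613 CPM at 0-PFOS, 726, 832, 708 and 669 at 1-PFOS and 727, 695, 772 and 684 at 10-PFOS. Both doses lay above 0-PFOS and overlapped each other. In hCYP2B6-Tg males Acaa2 had 533, 511, 513 and 562 CPM at 0-PFOS, 681, 668, 739 and 725 at 1-PFOS and 556, 593, 572 and 633 at 10-PFOS. In Cyp2b-null males Acaa2 had 524, 575, 529 and 557 CPM at 0-PFOS, 686, 623, 599.9 and 556 at 1-PFOS and 536, 560.02, 561 and 601 at 10-PFOS. The 10-PFOS males overlapped 0-PFOS, and in hCYP2B6-Tg males they lay below 1-PFOS. The log2 change at 10-PFOS was 0.38 ± 0.09 (edgeR adjusted p = 0.0023) in hCYP2B6-Tg females, 0.23 ± 0.09 (adjusted p = 0.0537) in Cyp2b-null females, 0.15 ± 0.08 (adjusted p = 0.105) in hCYP2B6-Tg males and 0.05 ± 0.08 (adjusted p = 0.645) in Cyp2b-null males, and at 1-PFOS 0.43 ± 0.09 (edgeR adjusted p = 0.0129) in hCYP2B6-Tg females, 0.26 ± 0.09 (adjusted p = 0.197) in Cyp2b-null females, 0.41 ± 0.08 (adjusted p = 0.000867) in hCYP2B6-Tg males and 0.17 ± 0.08 (adjusted p = 0.213) in Cyp2b-null males. The 1-PFOS call in hCYP2B6-Tg females was lost without replicate 1 of the hCYP2B6-Tg female 0-PFOS mice (adjusted p = 0.0543) or replicate 3 of the hCYP2B6-Tg female 1-PFOS mice (adjusted p = 0.0742), and the 10-PFOS value in Cyp2b-null females passed the threshold without replicate 4 of the 10-PFOS mice (adjusted p = 0.0418).

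Set side by side, the compartments differed by step and not in 1 direction. For the dienoyl-CoA reductases the mitochondrial Decr1 changed at 10-PFOS by 1.13 to 1.43 over the 4 combinations and the peroxisomal Decr2 by 0.05 to 0.34. For the thiolases the peroxisomal Acaa1a and Acaa1b changed by 1.14 to 1.87 and the mitochondrial Acaa2 by 0.05 to 0.38. Acaa2 is not the only mitochondrial gene of that step: Hadhb, of the trifunctional protein, changed by 1.20 to 1.30 and was called higher in all 4. For the enoyl-CoA isomerases the ranges lay closer, with 0.65 to 1.05 for Eci2 and 0.89 to 1.34 for Eci1. These differences between genes were not tested.

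**Figure D4:**
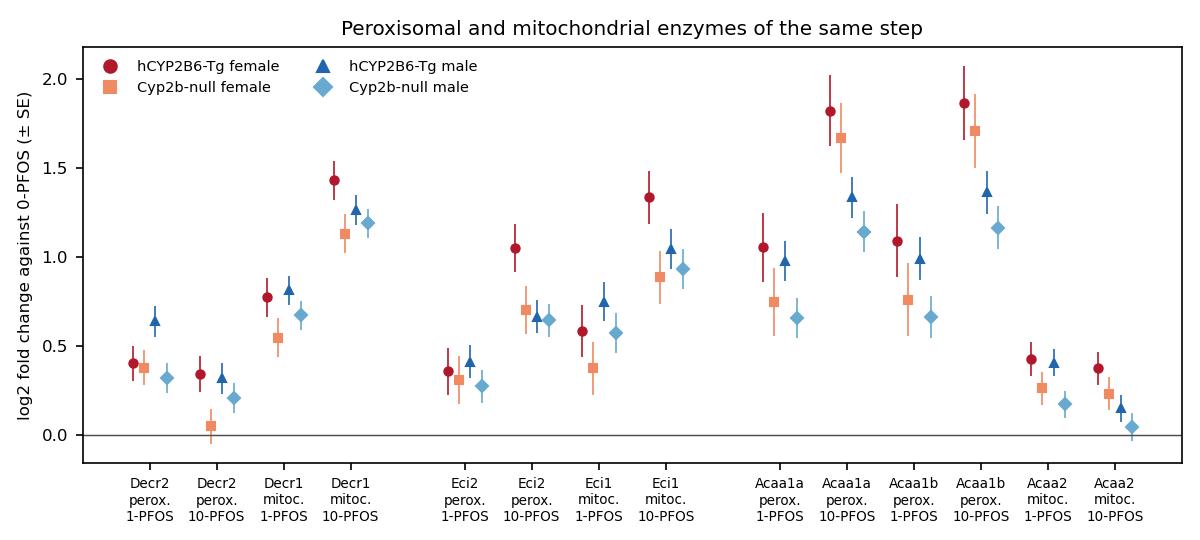
Log2 fold change ± standard error (y axis) of Decr2 and Decr1, of Eci2 and Eci1, and of Acaa1a, Acaa1b and Acaa2 at 1-PFOS and 10-PFOS against 0-PFOS in the 4 combinations of sex and genotype. At 10-PFOS Decr1 lay between 1.13 and 1.43 and Decr2 between 0.05 and 0.34, whereas Acaa1a and Acaa1b lay between 1.14 and 1.87 and Acaa2 between 0.05 and 0.38.

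Electrons from the dehydrogenases pass through the electron transfer flavoprotein, made of Etfa and Etfb, to its dehydrogenase Etfdh. Etfa changed at 10-PFOS by 0.22 ± 0.11 (edgeR adjusted p = 0.0905) in hCYP2B6-Tg females, −0.05 ± 0.11 (adjusted p = 0.759) in Cyp2b-null females, −0.01 ± 0.10 (adjusted p = 0.955) in hCYP2B6-Tg males and 0.02 ± 0.10 (adjusted p = 0.867) in Cyp2b-null males, and its value in hCYP2B6-Tg females passed the threshold without replicate 2 of their 0-PFOS mice (adjusted p = 0.0269). Etfb changed by 0.64 ± 0.14 (edgeR adjusted p = 0.000745) in hCYP2B6-Tg females, 0.27 ± 0.14 (adjusted p = 0.145) in Cyp2b-null females, 0.42 ± 0.14 (adjusted p = 0.0163) in hCYP2B6-Tg males and 0.26 ± 0.14 (adjusted p = 0.137) in Cyp2b-null males. Its call in hCYP2B6-Tg males was lost without replicate 3 of the hCYP2B6-Tg male 0-PFOS mice (adjusted p = 0.0587) or replicate 4 of the hCYP2B6-Tg male 10-PFOS mice (adjusted p = 0.0559), and 58.2% of its exon bases overlap Gm45233 on the same strand, with which reads may be shared. Etfdh rose in all 4, by 0.80 ± 0.09 (edgeR adjusted p = 2.6e-07) in hCYP2B6-Tg females, 0.34 ± 0.09 (adjusted p = 0.00518) in Cyp2b-null females, 0.45 ± 0.07 (adjusted p = 1.53e-05) in hCYP2B6-Tg males and 0.36 ± 0.07 (adjusted p = 0.000289) in Cyp2b-null males.

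Acsl1, the long-chain acyl-CoA synthetase that activates fatty acids before either route, rose at 10-PFOS in all 4 combinations. In hCYP2B6-Tg females Acsl1 had 853, 985, 879 and 853 CPM at 0-PFOS, 1310.3, 1127, 1166 and 1049 at 1-PFOS and 1742, 1977, 1573 and 1811 at 10-PFOS. In Cyp2b-null females Acsl1 had 1081, 1086, 869 and 947 CPM at 0-PFOS, 1261, 1175, 909 and 997 at 1-PFOS and 1613, 1317, 1556 and 1289.9 at 10-PFOS. The 10-PFOS females were separate from both lower doses. In hCYP2B6-Tg males Acsl1 had 658, 923, 976 and 703 CPM at 0-PFOS, 1208, 1182, 1020.4 and 1200.5 at 1-PFOS and 1342, 1122, 1445 and 1269.5 at 10-PFOS. In Cyp2b-null males Acsl1 had 809, 854, 784 and 669 CPM at 0-PFOS, 1126, 1025, 1032 and 1028 at 1-PFOS and 1351, 1194, 1313 and 1159.6 at 10-PFOS. Exposed males lay above 0-PFOS, with 10-PFOS and 1-PFOS overlapping in hCYP2B6-Tg males. At 10-PFOS the change of Acsl1 was 0.99 ± 0.12 (edgeR adjusted p = 6.54e-07) in hCYP2B6-Tg females, 0.54 ± 0.12 (adjusted p = 0.00113) in Cyp2b-null females, 0.67 ± 0.12 (adjusted p = 4.55e-05) in hCYP2B6-Tg males and 0.69 ± 0.12 (adjusted p = 3.92e-05) in Cyp2b-null males. At 1-PFOS it was called in both male genotypes, and in Cyp2b-null males (0.43 ± 0.12, adjusted p = 0.0349) the call was lost without replicate 1 or 3 or 4 of the Cyp2b-null male 0-PFOS mice (adjusted p = 0.0699, 0.0712 and 0.126) or replicate 1 or 3 or 4 of the Cyp2b-null male 1-PFOS mice (adjusted p = 0.0745, 0.0879 and 0.0609). For Acsl1 9.91% of the exon bases overlap a gene on the opposite strand.

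Bdh1 interconverts the ketone bodies acetoacetate and hydroxybutyrate, and was the only member called lower at 10-PFOS. In hCYP2B6-Tg females Bdh1 had 157, 209, 199 and 185 CPM at 0-PFOS, 217, 189, 215 and 189 at 1-PFOS and 135, 117, 148 and 166 at 10-PFOS. In Cyp2b-null females Bdh1 had 218, 211, 185 and 199 CPM at 0-PFOS, 225, 217, 179 and 191 at 1-PFOS and 165, 138, 165 and 157 at 10-PFOS. The null 10-PFOS females lay below 0-PFOS and 1-PFOS, while the transgenic ones lay below 1-PFOS and overlapped 0-PFOS. In hCYP2B6-Tg males Bdh1 had 112, 134, 134 and 130.4 CPM at 0-PFOS, 135, 139, 147 and 139 at 1-PFOS and 119.9, 112, 120.02 and 117 at 10-PFOS. In Cyp2b-null males Bdh1 had 121, 127, 122 and 113 CPM at 0-PFOS, 146, 138, 122 and 116 at 1-PFOS and 98.9, 123, 96.5 and 103 at 10-PFOS. In males 10-PFOS overlapped 0-PFOS. The log2 change at 10-PFOS was −0.41 ± 0.11 (edgeR adjusted p = 0.00519) in hCYP2B6-Tg females, −0.38 ± 0.11 (adjusted p = 0.0102) in Cyp2b-null females, −0.12 ± 0.09 (adjusted p = 0.261) in hCYP2B6-Tg males and −0.19 ± 0.09 (adjusted p = 0.0693) in Cyp2b-null males. The value in Cyp2b-null males passed the threshold without replicate 4 of their 0-PFOS mice (adjusted p = 0.0435) or replicate 2 of their 10-PFOS mice (adjusted p = 0.0123), and also with upper quartile factors (0.043) or the stricter filter on low counts (0.0373). On the opposite strand Gm15743 overlaps 13.7% of the exon bases of Bdh1, with which reads may be shared. Between 1-PFOS and 10-PFOS Bdh1 fell in all 4 combinations.

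Pdk4, a kinase that shuts pyruvate dehydrogenase and so spares glucose when fat is burned, had the largest standard errors of the members. In hCYP2B6-Tg females Pdk4 had 15.98, 23.1, 13.3 and 6.67 CPM at 0-PFOS, 34.9, 27.4, 20.1 and 11.4 at 1-PFOS and 68.5, 105, 109 and 82.96 at 10-PFOS. In Cyp2b-null females Pdk4 had 79.5, 57.5, 22.3 and 22.1 CPM at 0-PFOS, 35.6, 82.8, 15.1 and 10.3 at 1-PFOS and 139.8, 151, 116 and 92.6 at 10-PFOS. The 10-PFOS females were above all others of their genotype, and the lower doses overlapped. In hCYP2B6-Tg males Pdk4 had 9.73, 13.1, 11.4 and 12.4 CPM at 0-PFOS, 8.01, 5.06, 4.17 and 5.88 at 1-PFOS and 62.3, 121, 53.5 and 55.4 at 10-PFOS. In Cyp2b-null males Pdk4 had 9.73, 22.4, 25.4 and 18.7 CPM at 0-PFOS, 13.5, 20.8, 19.8 and 15.4 at 1-PFOS and 82.5, 45.2, 75.7 and 88.2 at 10-PFOS. The hCYP2B6-Tg males at 1-PFOS lay below their 0-PFOS mice, and all 10-PFOS males lay above both lower doses. At 10-PFOS Pdk4 rose by 2.63 ± 0.53 (edgeR adjusted p = 0.000327) in hCYP2B6-Tg females, 1.46 ± 0.51 (adjusted p = 0.0264) in Cyp2b-null females, 2.65 ± 0.29 (adjusted p = 5.77e-08) in hCYP2B6-Tg males and 1.94 ± 0.28 (adjusted p = 4.6e-06) in Cyp2b-null males. It fell at 1-PFOS in hCYP2B6-Tg males (−1.01 ± 0.28, adjusted p = 0.0171), and was not called at 1-PFOS in the others. The call in Cyp2b-null females at 10-PFOS was lost without replicate 3 or 4 of the Cyp2b-null female 0-PFOS mice (adjusted p = 0.0818 and 0.0862) or replicate 1 or 2 of the Cyp2b-null female 10-PFOS mice (adjusted p = 0.0523 and 0.0556), and that in hCYP2B6-Tg males at 1-PFOS without replicate 3 of the hCYP2B6-Tg male 1-PFOS mice (adjusted p = 0.0607).

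The step between the 2 doses was fitted directly. At 10-PFOS against 1-PFOS, 22 members rose and 1 fell in hCYP2B6-Tg females, where 19.1% of all genes rose and 19% fell, and 19 rose and 2 fell in Cyp2b-null females, where 17.8% rose and 16.8% fell. In hCYP2B6-Tg males 20 rose and 3 fell, beside 18.8% and 19.5% of all genes, and in Cyp2b-null males 19 rose and 1 fell, beside 19.2% and 19%. Those that fell were Bdh1 in every combination, Decr2 in Cyp2b-null females and hCYP2B6-Tg males, and Acaa2 in hCYP2B6-Tg males. Decr2, Acaa2, Abcd3 and Hadh, which were called at 1-PFOS in at least 1 combination, had no further rise called in any, while Ehhadh, Crat and Pex11a rose further in all 4.

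**Figure D5:**
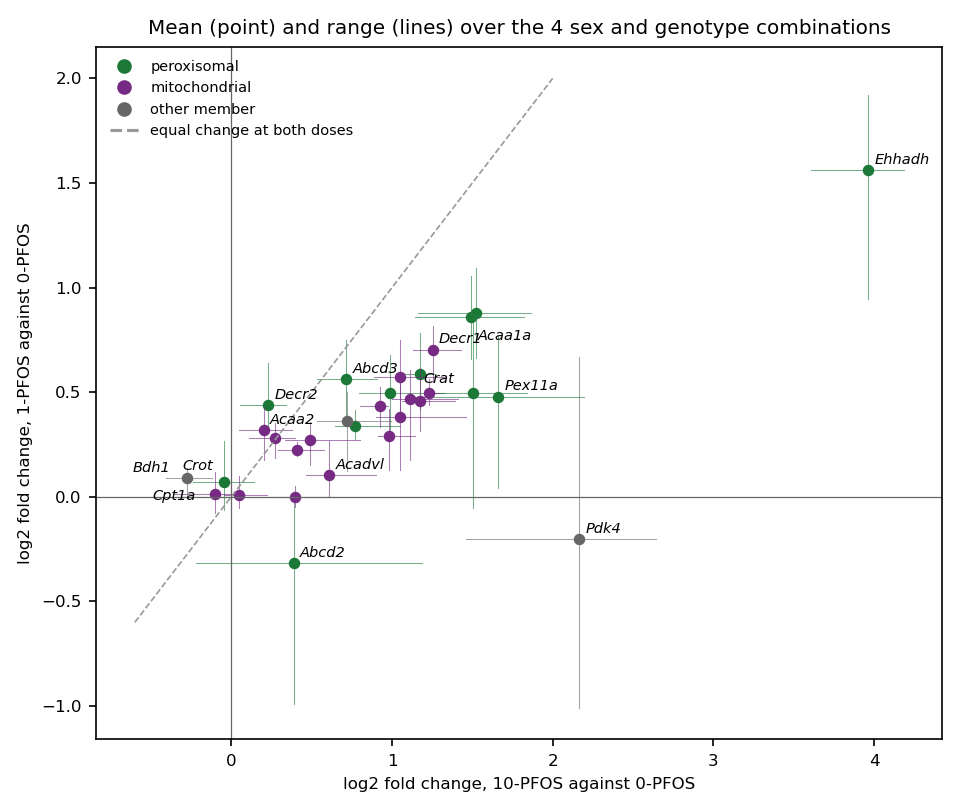
Mean log2 fold change of each member over the 4 combinations at 1-PFOS (y axis) against that at 10-PFOS (x axis), with lines for the range over the combinations and a diagonal for equal change. Most members lay below the diagonal, Ehhadh at 1.56 against 3.97, and Decr2, Acaa2, Crot, Cpt1a, Bdh1 and, by little, Hadh lay above it.

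The genotypes were compared to ask whether the human CYP2B6 transgene altered these levels and changes. In females 0 of 31 members were called between hCYP2B6-Tg and Cyp2b-null mice at 0-PFOS (5 with an unadjusted p under 0.05; DESeq2 0) or at 1-PFOS (2 unadjusted; DESeq2 0), beside 0% of all genes at both doses. At 10-PFOS 1 was called, beside 3.59% of all genes: Eci2 was higher at 388 ± 36.9 CPM in hCYP2B6-Tg females, against 269 ± 22.01 CPM in Cyp2b-null females (SD, n = 4 each), a log2 difference of 0.53 ± 0.13 (edgeR adjusted p = 0.0311). That call was lost without replicate 1 or 2 or 3 of the hCYP2B6-Tg female 10-PFOS mice (adjusted p = 0.0604, 0.125 and 0.0653) or replicate 1 or 2 or 3 of the Cyp2b-null female 10-PFOS mice (adjusted p = 0.0974, 0.0991 and 0.0772). Of the 13193 genes tested, 676 and 826 had an unadjusted p under 0.05 between the genotypes at 0-PFOS and 1-PFOS. The response to dose differed between the female genotypes for 0 members at 1-PFOS (6 unadjusted, DESeq2 0) and 0 at 10-PFOS (8 unadjusted, DESeq2 1). Beside these stand 0% of all genes at both, with 524 and 1357 unadjusted. At 10-PFOS 29 of the 31 differences were above 0, with a median of 0.30, beside 6430 of the 13193 genes and a median of −0.009. Members share mice, so that these 29 are not separate observations.

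In males 0 members were called between the genotypes at 0-PFOS (1 unadjusted; DESeq2 0) and at 10-PFOS (1 unadjusted; DESeq2 0), beside 0% and 0.0556% of all genes. At 1-PFOS 1 was called, beside 0.889% of all genes: Pdk4 had 5.78 ± 1.64 CPM in hCYP2B6-Tg males, against 17.4 ± 3.49 CPM in Cyp2b-null males (SD, n = 4 each), a log2 difference of −1.59 ± 0.28 (edgeR adjusted p = 0.00484). Of the 12594 genes tested, 861 and 1053 had an unadjusted p under 0.05 between the genotypes at 0-PFOS and 10-PFOS. The male responses differed for 0 members at 1-PFOS (5 unadjusted, DESeq2 0) and 0 at 10-PFOS (1 unadjusted, DESeq2 0). Beside these stand 0.0556% and 0% of all genes, with 1085 and 1066 unadjusted. The numbers of members called at 1-PFOS in transgenic and in null mice are therefore not shown to differ.

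Sexes were compared in a joint fit of all 48 libraries, with CPM scaled over both sexes. At 0-PFOS 7 members differed between hCYP2B6-Tg females and males (DESeq2 9), where 21.8% of all genes did, and 6 between Cyp2b-null females and males (DESeq2 7), where 12.8% did. Abcd2 was the clearest in both: it averaged 89.3 ± 10.2 CPM in hCYP2B6-Tg females and 24.03 ± 1.75 CPM in hCYP2B6-Tg males (1.89 ± 0.25, edgeR adjusted p = 3.21e-07), and 81.4 ± 17.6 CPM in Cyp2b-null females and 27.7 ± 9.005 CPM in Cyp2b-null males (1.56 ± 0.25, adjusted p = 1.81e-05). Acaa1a, Acaa1b and Hsd17b4 were lower in females of both genotypes. Acaa1a, for example, differed by −0.50 ± 0.16 (adjusted p = 0.0211) in hCYP2B6-Tg mice and −0.62 ± 0.16 (adjusted p = 0.00811) in Cyp2b-null mice. Pex11a, Slc25a20 and Acadvl were called lower in hCYP2B6-Tg females only, and Ehhadh and Bdh1 higher in Cyp2b-null females only; whether the sex difference itself differed between genotypes was not tested.

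The response at 10-PFOS differed between the sexes for 3 members in hCYP2B6-Tg mice (DESeq2 4), where 6.5% of all genes did, and for 0 in Cyp2b-null mice (6 unadjusted; DESeq2 0), where 0.949% did. Abcd2 responded less in hCYP2B6-Tg females than in hCYP2B6-Tg males, by −1.43 ± 0.34 (edgeR adjusted p = 0.00792). Hsd17b4 responded more in these females, by 0.43 ± 0.12 (adjusted p = 0.0182), and so did Slc25a20, by 0.53 ± 0.15 (adjusted p = 0.0285). The Slc25a20 call was lost without replicate 1 of the hCYP2B6-Tg female 0-PFOS mice (adjusted p = 0.0606) or replicate 2 of the hCYP2B6-Tg female 10-PFOS mice (adjusted p = 0.0959) or replicate 1 of the hCYP2B6-Tg male 10-PFOS mice (adjusted p = 0.0501). At 1-PFOS the sexes differed in the response of 0 members in hCYP2B6-Tg mice (1 unadjusted, DESeq2 0) and 0 in Cyp2b-null mice (5 unadjusted, DESeq2 0). Beside these stand 0.241% and 0.0226% of all genes, with 1328 and 983 of 13271 genes unadjusted. For the 10-PFOS response in Cyp2b-null mice 1532 genes had an unadjusted p under 0.05.

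Other genes of these pathways moved in both directions at 10-PFOS, where 19.1% to 24.1% of all genes tested rose and 17.8% to 24.5% fell, the shares against which the counts of each list stand. Of 20 further genes of peroxisomal metabolism, 11 rose and 3 fell in hCYP2B6-Tg females, 7 rose and 3 fell in Cyp2b-null females, 9 rose and 6 fell in hCYP2B6-Tg males and 9 rose and 6 fell in Cyp2b-null males, with medians of 0.42, 0.02, 0.09 and 0.13. Acot8, a peroxisomal thioesterase, rose in all 4, by 1.00 to 1.49. Hao1, a glycolate oxidase of the same organelle, fell in all 4, with changes of −2.17 to −1.19. Of 19 genes of peroxisome biogenesis, 6, 5, 7 and 7 rose and 2, 3, 1 and 2 fell, with medians of 0.25, 0.17, 0.24 and 0.18. Pex19, which brings membrane proteins to the peroxisome, rose in all 4, by 0.36 to 0.67, and Pex6 fell in all 4.

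Of 20 further mitochondrial fatty acid and ketone body genes, 19 passed the expression filter, and 12, 5, 10 and 9 rose and 4, 2, 3 and 3 fell in hCYP2B6-Tg females, Cyp2b-null females, hCYP2B6-Tg males and Cyp2b-null males. Their medians were 0.44, 0.22, 0.31 and 0.09 in the same order. Acadsb, which acts on branched chains, fell in all 4 by 0.47 to 0.89 on the log2 scale. Among 12 genes of PPARα and its partners 3, 3, 2 and 3 rose and 3, 3, 2 and 4 fell, shares close to those of all genes. Creb3l3, a transcription factor of the liver that works with PPARα, rose in all 4 by 0.63 to 0.90, and Nrip1, a corepressor of nuclear receptors, by 0.45 to 0.77. Ppara itself was called lower in 2 of the 4, with changes of −0.68 to −0.38, and the coactivator Ppargc1a in 3, with −1.43 to −0.72. Of 11 genes that respond to fasting and feeding, 1, the member Pdk4, rose in every combination and 0, 3, 3 and 4 fell. Fgf21, a PPARα-dependent hormone, was called in 0 of the 4, with changes of −0.86 to 1.17, and the gluconeogenic Pck1 was lower in 3 of them, with changes of −2.73 to −1.08.

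Markers of other liver cells were read beside these changes. The 7 Kupffer cell markers summed to 117 to 189 CPM in hCYP2B6-Tg females at 10-PFOS, against 270.4 to 401 CPM at 0-PFOS, and to 93.7 to 154 CPM in Cyp2b-null females at 10-PFOS, against 282 to 344 CPM at 0-PFOS. In males they summed to 65.4 to 86.6 CPM in hCYP2B6-Tg mice at 10-PFOS, against 104 to 157 CPM at 0-PFOS, and to 58.5 to 76.7 CPM in Cyp2b-null mice at 10-PFOS, against 70.4 to 143 CPM at 0-PFOS. Of these markers 6, 7, 2 and 4 of 7 fell. Fewer cells of a type and less RNA per cell cannot be told apart in bulk liver. The 7 hepatocyte markers also summed to less at 10-PFOS, for example 62360 to 72410 CPM in hCYP2B6-Tg females, against 89720 to 119200 CPM at 0-PFOS, and 5, 4, 6 and 5 of them fell while 1 rose in each combination. The 6 stellate cell markers summed to 166.2 to 179 CPM in hCYP2B6-Tg females at 10-PFOS, against 190.2 to 268 CPM at 0-PFOS, and to 126.5 to 159 CPM in Cyp2b-null females at 10-PFOS, against 196.4 to 269.7 CPM at 0-PFOS. In males the stellate sums overlapped, at 99.5 to 123.9 CPM against 93.8 to 104.3 CPM in hCYP2B6-Tg mice and 89.2 to 132.2 CPM against 102.3 to 131.3 CPM in Cyp2b-null mice. Of the stellate markers 3, 4, 1 and 1 fell and 0, 0, 2 and 1 rose. Of 6 endothelial cell markers 3, 2, 1 and 1 fell and 1 rose in each combination, and their sums overlapped between these doses in all 4. All these marker counts stand beside 17.8% to 24.5% of all genes that fell and 19.1% to 24.1% that rose. The 5 adipocyte markers summed to at most 0.133 CPM in every female group and 0.126 CPM in males at 10-PFOS, and to as much as 11.8 CPM in hCYP2B6-Tg males and 9.001 CPM in Cyp2b-null males at 1-PFOS. The part of these markers in the members' changes was not tested.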

How the data were processed

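Whole-liver RNA was sequenced from 48 mice, and the deposited tables that were read hold gene counts per library, which the authors made with tools named in the submitters' notes (FastQC, Trim Galore, RSEM, featureCounts and edgeR, genome GRCm39), without versions in the sources used here. The counts were whole numbers, 91.1% to 91.2% of those above 0 were even, and the sources used here give no strand setting for the counting. Library totals are given with the results. The standard errors were calculated back from each change and its F statistic. That statistic rests on the spread between mice within groups, estimated over all groups of a fit. Of 40872 rows per table, 25 were broken across lines and left out. The 64 columns of values per sample in 8 other files were not used, nor were the authors' comparison tables of fold changes and p-values.

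Genes with more than 1 CPM in at least 3 of 4 mice of a group were kept. Counts were fitted with edgeR 4.0.16 (R 4.3.3, limma 3.58.1): TMM factors, quasi-likelihood F test, 6 groups of 24 libraries within each sex, and 48 libraries for contrasts between sexes, with Benjamini-Hochberg adjustment over all genes tested. Class means used log2 CPM with a prior count of 2. Alternatives were DESeq2 1.42.0, other scaling factors, other filters, a likelihood ratio test, fits of only the groups compared, the replicate number as a block and leaving out each library. The fits were tested on simulated data. Python 3.11.15, pandas 2.3.3, numpy 2.4.6 and matplotlib 3.10.9 were used for tables, promoter searches and plots. All 31 members are named, and 19 of them are given in every mouse: the 4 peroxisomal and 4 mitochondrial members with the largest mean change at 10-PFOS, the 3 other members, the enzymes of the same step in both compartments, and members called in a genotype comparison or an interaction. From each further list at most 4 called genes with the largest mean rises and falls are named, besides Ppara and Fgf21, and some genes that this rule names are not reported here. The members and lists were chosen with earlier results of these data known.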

Additional observations from a re-analysis of the deposited data

Results flagged for a closer look

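Single mice stood apart from the other 3 of their group, by a gap that took most of the group's whole range, in 13 of 240 groups examined (5.42%), where chance gives about 1 in 20. In 1-PFOS mice these were Pex11a in a Cyp2b-null female (42.69 CPM), Hadhb (337.3 CPM) and Decr2 (317.4 CPM) in hCYP2B6-Tg females, Acsl1 in a Cyp2b-null male (1126 CPM) and an hCYP2B6-Tg male (1020 CPM), and Hsd17b4 in an hCYP2B6-Tg male (385.3 CPM). In 0-PFOS mice they were Hadhb in a Cyp2b-null female (181.6 CPM), Bdh1 (111.7 CPM) and Eci1 (81.92 CPM) in hCYP2B6-Tg males and Hsd17b4 in a Cyp2b-null male (272.1 CPM). Among 10-PFOS mice they were Pdk4 (120.6 CPM) and Hsd17b4 (552.9 CPM) in hCYP2B6-Tg males. The peroxisomal minus mitochondrial mean of 1 Cyp2b-null male at 1-PFOS was 0.467 log2 CPM.

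In hCYP2B6-Tg mice the log2 response at 10-PFOS differed between females and males for Hsd17b4 (0.428), Abcd2 (−1.428) and Slc25a20 (0.5288), tested as an interaction in edgeR.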

How the results depend on the processing

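No result reversed under any alternative run. At 10-PFOS the counts of members called by class stayed within 1.5 times the reported ones in all 4 combinations under every setting; the 1-PFOS counts did not. Under DESeq2, Cyp2b-null females at 1-PFOS had 5 peroxisomal and 2 mitochondrial members called (reported 1 and 1) and hCYP2B6-Tg females 1 other member (reported 0). Under DESeq2 also, 2 peroxisomal and 1 mitochondrial members differed between female genotypes at 10-PFOS (reported 1 and 0), 1 mitochondrial member differed in their response at 10-PFOS (reported 0), and between hCYP2B6-Tg sexes 4 mitochondrial members differed at 0-PFOS and 2 in the response at 10-PFOS (reported 2 and 1). The likelihood ratio test called 4 peroxisomal and 2 mitochondrial members in Cyp2b-null females at 1-PFOS, and the stricter filter 2 peroxisomal. With no filter on low counts, 6 mitochondrial members were called in hCYP2B6-Tg females at 1-PFOS (reported 10), and 4 mitochondrial and 0 other members in Cyp2b-null males (reported 7 and 1). In a fit of only the 2 groups compared, which has fewer samples, the 1-PFOS counts were 3 peroxisomal in Cyp2b-null females, 4 peroxisomal and 1 mitochondrial in hCYP2B6-Tg females (reported 9 and 10), and 2 peroxisomal, 1 mitochondrial and 0 other in Cyp2b-null males (reported 8, 7 and 1). Without scaling factors, a setting chosen after seeing the data, they were 0 mitochondrial in Cyp2b-null females, 6 mitochondrial in hCYP2B6-Tg females, 7 mitochondrial in hCYP2B6-Tg males (reported 12) and 1 peroxisomal, 1 mitochondrial and 0 other in Cyp2b-null males. The cause was not tested.

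At 10-PFOS the peroxisomal minus mitochondrial median without Crat and Ech1 was 0.3314 in hCYP2B6-Tg males, 0.09109 in Cyp2b-null males and 0.157 in Cyp2b-null females, and with Acsl1, Bdh1 and Pdk4 counted as mitochondrial it was 0.4054 in Cyp2b-null females. Leaving out 1 library gave 0.4706 to 0.5788 for this difference in hCYP2B6-Tg males at 10-PFOS and 0.2437 to 0.345 at 1-PFOS. It also gave, at 1-PFOS, 0 to 1 peroxisomal and 0 to 1 mitochondrial members in Cyp2b-null females, 3 to 10 mitochondrial in hCYP2B6-Tg females (3 without replicate 3 of the 1-PFOS mice and 5 without replicate 1 of the 0-PFOS mice), 5 to 8 peroxisomal (5 without replicate 1 of the 0-PFOS mice or replicate 3 of the 1-PFOS mice) and 0 to 1 other in Cyp2b-null males, and 1 to 2 other in hCYP2B6-Tg males. Between female genotypes at 10-PFOS it gave 0 to 1 peroxisomal and 0 to 1 mitochondrial. Over the single members, 102 calls were lost, 9 were gained and 1937 values kept their side of the threshold.

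The correlation of same-numbered mice averaged 0.04 (−0.129 to 0.481) in females and 0.0167 (−0.194 to 0.304) in males and was over 0.1 in 14 and 11 of 60 pairs, not in every pair, so the numbers were not taken to pair mice. With the replicate block 18 members were called in hCYP2B6-Tg females at 1-PFOS (reported 19), and 252 member values kept their side of the threshold while 1 lost its call. At 4 mice per group, a change that misses the threshold is not shown to be absent.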
